A study of Mus musculus with 2 samples.

Results

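The Dlk1-Dio3 domain of mouse chromosome 12 carries miRNA hairpins along the noncoding genes Meg3 and Rian and opposite the coding gene Rtl1. The miRNAs described here are all table entries that name 1 of 17 miRNAs of this stretch in any arm: miR-127, miR-136, miR-337, miR-341, miR-370, miR-431, miR-432, miR-433, miR-434, miR-493, miR-540, miR-665, miR-673, miR-770, miR-1188, miR-3070 and miR-3071. They are 34 of the 1907 mature miRNAs listed. The counts come from small RNA libraries of total RNA of 2 Dicer knockout mouse embryonic stem cell samples of 129/Ola background, grown in serum with LIF; the labels also give E14 as stage and name the samples C1 (library 1) and H11 (library 2). Both libraries carry the knockout. No control with Dicer was analysed here, so no level could be set against cells that have the enzyme, and nothing in the labels says whether the samples are separate clones or cultures.

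The domain is imprinted. Its noncoding RNAs and miRNAs are made from the maternal chromosome, while the coding genes Dlk1, Rtl1 and Dio3 are made from the paternal one. Most miRNAs are cut from a hairpin precursor by Dicer, which releases a 5p and a 3p strand as a duplex. The miRNAs opposite Rtl1, a retrotransposon-derived gene needed in the placenta, are known for pairing in full with the Rtl1 mRNA and guiding its cleavage. Activity of the maternal RNAs of this domain is known to vary between cultured pluripotent cell lines.

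All 34 names matched a mature sequence in the RefSeq table for GRCm38, the assembly also called mm10. Their 18 hairpin genes lie on chromosome 12 between 109563692 and 109618336. The first, Mir770, lies in an exon of Meg3 on the same strand, at 109563692 to 109563785. Mir673, Mir493, Mir337, Mir540, Mir665, Mir3070a and Mir3070b follow between annotated genes. Mir431 (109590447 to 109590537), Mir433 (109591715 to 109591838), Mir127 (109592846 to 109592915), Mir434 (109594506 to 109594599), Mir432 (109594956 to 109595030) and Mir136 (109595327 to 109595388) lie on the plus strand, opposite the coding exon of Rtl1. Mir3071 lies on the minus strand over Mir136, and therefore on the strand of Rtl1. Mir341 (109611500 to 109611595), Mir1188 and Mir370 lie in introns of Rian on its strand.

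The mature sequences of the 6 miRNAs with at least 10 counts over both libraries are given first, because they hold most of the members' counts and are the members tested between the libraries; the second arm of miR-127 is added to complete its pair. They are written 5′ to 3′ with the seed, bases 2 to 8, in capitals.
miR-127-3p: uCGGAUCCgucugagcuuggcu
miR-127-5p: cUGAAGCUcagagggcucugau
miR-434-3p: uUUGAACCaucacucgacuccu
miR-434-5p: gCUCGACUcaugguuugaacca
miR-431-5p: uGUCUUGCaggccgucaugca
miR-136-3p: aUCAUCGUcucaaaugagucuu
miR-341-3p: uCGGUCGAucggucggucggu
No seed of these 7 was shared with another entry of the table that has a RefSeq sequence. Over all 34 there were 33 distinct seeds, and the one shared pair was miR-3070-3p and miR-3070-2-3p, which come from near-identical hairpins. No full mature sequence of these 34 was found in a RefSeq hairpin other than its own, counting both copies of miR-3070.

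The hairpins of the most abundant member and of the one member called different between the libraries by adjusted p and 2-fold minimum are shown with both mature arms in capitals. Mir127 has 70 nt and Mir434 has 94 nt.
Mir127: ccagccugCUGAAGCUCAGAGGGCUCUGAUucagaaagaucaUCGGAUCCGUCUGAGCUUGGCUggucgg
Mir434: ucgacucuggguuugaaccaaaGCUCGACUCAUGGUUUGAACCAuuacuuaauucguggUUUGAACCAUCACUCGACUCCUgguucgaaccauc
The arms of miR-434 share the 9-nt run UUUGAACCA, which includes the whole 3p seed and lies at the 3′ end of the 5p arm. The run occurs 3 times in the hairpin. Of 658 hairpins with both arms in the table and in RefSeq, 9 (1.37%) had arms that share a run at least this long, and the median was 4 nt. Mir431 is another, with a shared run of 10 nt.

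Each of the 11 mature arms from the plus-strand hairpins opposite Rtl1 had 1 site of full complementarity in the Rtl1 transcript of 6358 nt, which their position on the opposite strand fixes. All 11 sites lay in the coding part (positions 148 to 5379). The sites of 3 arms are shown on the mRNA strand as DNA, with the match to the seed in capitals.
miR-127-3p site, positions 2642 to 2663: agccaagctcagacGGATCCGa
miR-434-3p site, positions 965 to 986: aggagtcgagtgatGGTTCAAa
miR-434-5p site, positions 1002 to 1023: tggttcaaaccatgAGTCGAGc
Of these 11 arms, 8 had a count. Rtl1 mRNA is not part of a small RNA table, so cleavage was not measured.

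The table held 45222 counts for library 1 and 37476 for library 2. Levels are given as CPM, counts scaled to a library total of 1000000. A single count is worth 22.1 CPM in the first library and 26.7 CPM in the second. The total is led by miR-3963, miR-6240 and miR-5126, at mean levels of 288466, 167331 and 119384 CPM. Shares of a library below are shares of this total. A count of 0 allows up to 3 counts, or 0.00663% of library 1 and 0.00801% of library 2. Intervals below are 95% intervals and cover counting error only. The columns differed by more than counting noise (chi-square 2201 over 129 miRNAs) and were treated as 2 samples. The miR-290 cluster, which marks embryonic stem cells, had counts for 14 of 18 listed arms and made up 3.62% of library 1 and 3.24% of library 2. Of other cell type markers, all 9 muscle arms and both liver arms of miR-122 were at 0. The neural list had 29 and 10 counts (5 of 7 arms), the blood list 28 and 17 (4 of 7 arms, with miR-451a and both arms of miR-223 at 0), and the fibroblast or smooth muscle list 7 and 15 (4 of 8 arms, both arms of miR-214 at 0). These markers are miRNAs themselves, and most miRNAs are cut by Dicer. In knockout libraries their counts, low or 0, therefore cannot show which cells were present.

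The 34 miRNAs together had 166 counts in library 1 and 250 in library 2. Their share was 0.367% in library 1, with a Wilson interval of 0.315 to 0.427, against 0.667% in library 2, with an interval of 0.590 to 0.755. The mean share was 0.517% ± 0.212 (SD, n = 2). Library 2 had the higher share, and the 2 intervals did not overlap. The ratio of library 2 to library 1 was 1.82 (exact interval 1.49 to 2.22), and 2.07 (1.34 to 3.23) when miR-127-3p was left out. The ratio stayed above 1 under each of the 3 other library scales, at 1.87 to 2.25. In these bulk libraries fewer cells with a miRNA and less of it per cell cannot be told apart. The fibroblast or smooth muscle markers went from 155 CPM in library 1 to 400.3 CPM in library 2, mostly through miR-143-3p at 6 and 12 counts. Their ratio was 2.59, with an exact interval of 0.992 to 7.50 that includes 1. The other marker lists with counts had a lower summed CPM in library 2. The ratio was 0.416 (0.181 to 0.878) for the neural list and 0.733 (0.376 to 1.39) for the blood list. For the embryonic stem cell list it was 0.894 (0.830 to 0.964), with arms in both directions. There, 9 arms had the higher CPM in library 1 and 5 in library 2. The only arm of that list called different, miR-294-3p, was higher in library 2 (26 and 46 counts). The part of any of these lists in the result was not tested.

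Counts were spread unevenly over the members. Of the 34, 16 had a count in either library, 10 of them in both, and 4 reached 10 counts in at least 1 library. The 18 at 0 in both libraries were miR-136-5p, miR-337-3p, miR-341-5p, miR-370-5p, miR-432, miR-433-5p, miR-540-5p, miR-665-5p, miR-770-3p and both listed arms of miR-493, miR-1188 and miR-3071, together with the 3 entries of miR-3070. The 10 with 1 to 9 counts in all had at most 3 over both libraries. The 18 at 0 were thus not detectable at this depth.

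**Figure D1:**
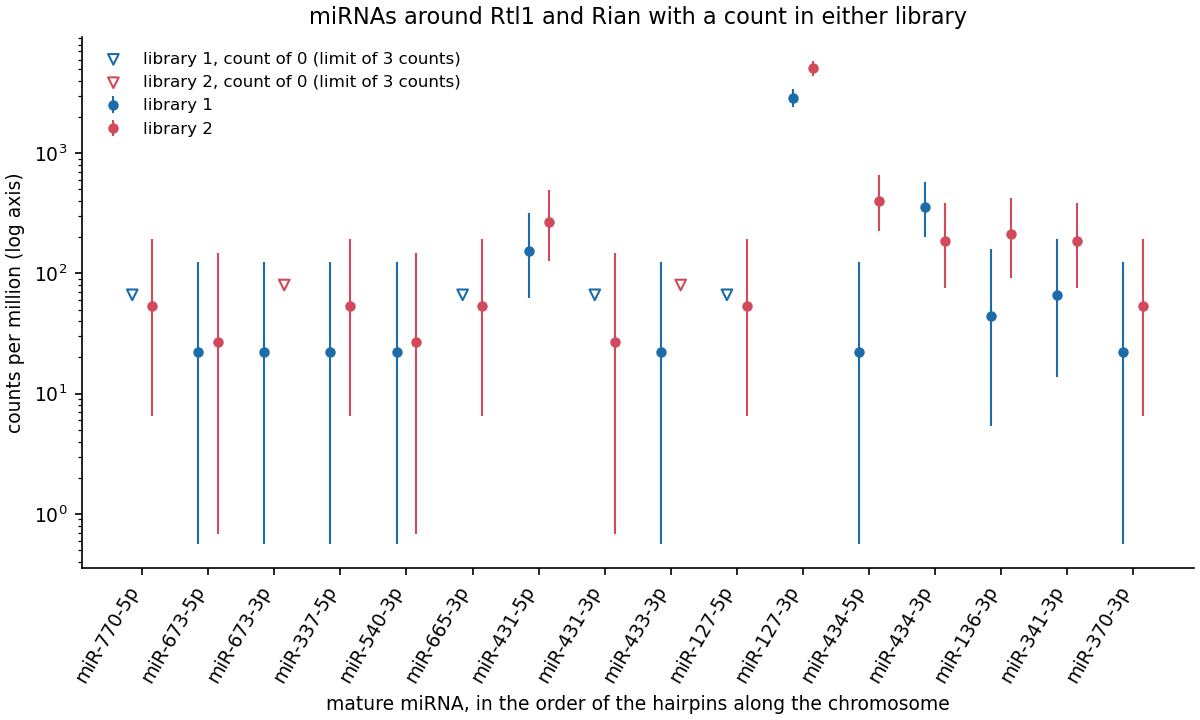
Level of each miRNA with a count, in CPM on a log axis, with exact 95% Poisson intervals; miRNAs are in the order of their hairpins along the chromosome, and open triangles mark a count of 0 at its limit of 3 counts. miR-127-3p stands above all others in both libraries, and the intervals of the 2 libraries are apart for miR-127-3p and miR-434-5p and overlap for the other miRNAs with a count in both.

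The miRNAs opposite Rtl1 held nearly all of these counts. The stretch over Rtl1, with Mir3071 included, gave 158 counts in library 1 and 233 in library 2, or 95.2% and 93.2% of the members' counts. The stretch from Meg3 to Rtl1 had 4 counts in library 1 and 8 in library 2 over 15 entries, of which 6 had a count. The Rian introns had 4 and 9 counts over 6 entries, of which 2 had a count. In each of the 3 stretches the share was higher in library 2: the ratio was 2.41 (exact interval 0.647 to 10.95) from Meg3 to Rtl1, 1.78 (1.45 to 2.19) over Rtl1 and 2.72 (0.758 to 12.1) in Rian. Outside the Rtl1 stretch the interval included 1, so a difference was not detectable there.

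**Figure D2:**
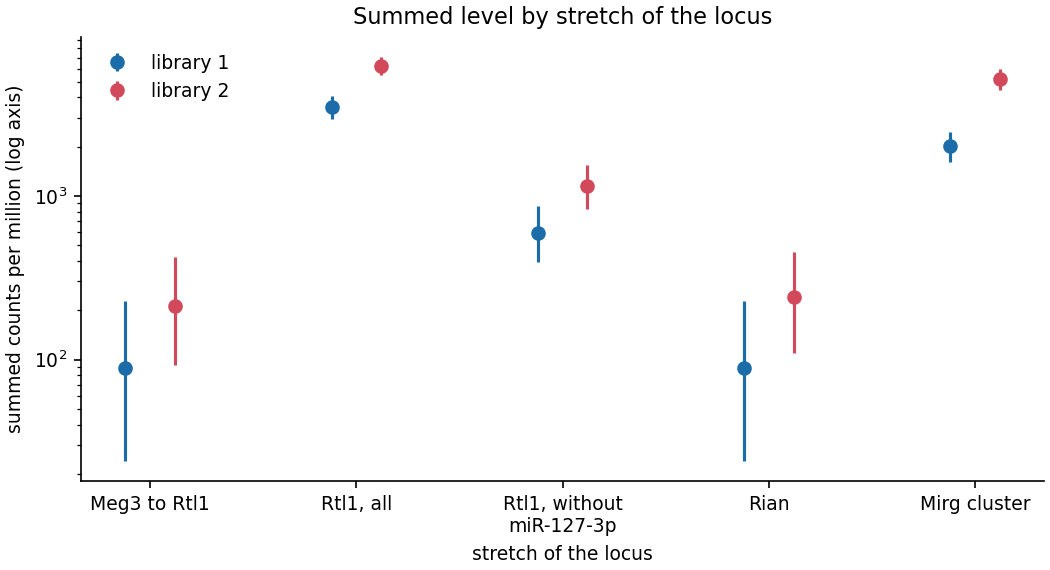
Summed CPM on a log axis for each stretch of the locus in both libraries, with exact 95% Poisson intervals. The Rtl1 stretch (3494 and 6217 CPM) is the highest among the 3 stretches with and without miR-127-3p, and each point of library 2 lies above that of library 1.

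Opposite Rtl1, miR-127-3p was the main product. Library 1 held 131 counts of it and library 2 held 190, which is 2897 and 5070 CPM, or a mean of 3983 ± 1537 CPM (SD, n = 2). It made up 78.9% of the members' counts in library 1 and 76.0% in library 2, and ranked 19th among all entries in library 1 and 16th in library 2. The share was 1.75 times as high in library 2 (exact interval 1.39 to 2.20). Fisher's exact test gave p = 9.55e-06 after Benjamini-Hochberg adjustment over 129 miRNAs, but the difference was below the 2-fold minimum of the call. Its partner arm miR-127-5p had 0 and 2 counts.

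The arm of the miR-434 hairpin with more counts differed between the 2 libraries, though both arms had a count in each. Of the 5p arm, library 1 held 1 count and library 2 held 15 (22.1 and 400.3 CPM). From these counts its CPM was 18.1 times as high in library 2, with an exact interval of 2.78 to 762. The call set library 1 to 3 counts, which gave a log2 ratio of 2.59. The 5p arm was the only member called different (Fisher's exact test, adjusted p = 0.000591), and the call held under each of 7 other settings of filter, scale and fold minimum. Most of these settings could hardly undo it. The filters leave the ratio unchanged, and each scale moved it towards library 2. Only the fold minimum of 4 raised a threshold of the call. Of the 3p arm, 16 counts fell in library 1 against 7 in library 2 (354 and 187 CPM), a ratio of 0.528 with an interval of 0.184 to 1.36 (Fisher's exact test, adjusted p = 0.489). The hairpin as a whole had 17 counts in library 1 and 22 in library 2. Its 5p share was therefore 5.88% in library 1 (Wilson interval 1.05 to 27.0) and 68.2% in library 2 (47.3 to 83.6), and these intervals did not overlap. By count, the 5p arm led in library 2 and the 3p arm in library 1. The interval of library 2 includes an even split, so the leading arm there is not settled. The difference in arm share was not tested.

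The remaining miRNAs opposite Rtl1 had few counts. For miR-431-5p, 7 counts fell in library 1 against 10 in library 2 (155 and 267 CPM), a ratio of 1.72 with an interval of 0.592 to 5.34 (Fisher's exact test, adjusted p = 0.636). Its partner miR-431-3p had 0 and 1 count. The arm miR-136-3p had 2 and 8 counts (44.2 and 213 CPM), while miR-136-5p was at 0 in both. The ratio of miR-136-3p was 4.83 with an interval of 0.963 to 46.7 (Fisher's exact test, adjusted p = 0.212). With library 1 set to 3 counts, its log2 ratio was 1.69. miR-136-3p overlaps miR-3071-5p on the other strand by 19 nt. Whether the counting used strand is not given in the sources used here, so reads of this pair may not be separable; both arms of miR-3071 were at 0. miR-433-3p had 1 and 0 counts.

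In the Rian introns, miR-341-3p gave 3 counts in library 1 against 7 in library 2 (66.3 and 187 CPM), a ratio of 2.82 with an interval of 0.643 to 16.9 (Fisher's exact test, adjusted p = 0.482). miR-370-3p had 1 and 2 counts, and both arms of miR-1188 were at 0. Between Meg3 and Rtl1, miR-337-5p had 1 and 2 counts, miR-673-5p and miR-540-3p had 1 in each library, and miR-673-3p had 1 and 0. miR-770-5p, from Meg3 itself, had 0 and 2 counts, as had miR-665-3p. None of these low values separates the libraries beyond counting error.

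Over the whole table, 129 miRNAs had the 10 counts in both libraries together that the test required, among them 6 of the 34 members. The test compares 2 libraries, with 1 on each side, and not conditions. A call needed an adjusted p below 0.05 and at least a 2-fold difference in CPM; 7.75% of the 129 were called in either direction and 4.65% higher in library 2. Of the 6 members, 1 was called, higher in library 2, and 0 higher in library 1. Without the fold minimum 2 of the 6 passed, miR-127-3p and miR-434-5p, both higher in library 2. Of all 129 tested miRNAs, 12 (9.3%) passed and were higher in library 2. With 6 members tested, the members' share cannot be placed precisely beside this background. The CPM was higher in library 2 for 5 of the 6 members and for 59 of the 129, and the median log2 ratio was 1.15 for the members and -0.05 for all tested (ratios with 3 counts or fewer on a side set to 3 counts).

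**Figure D3:**
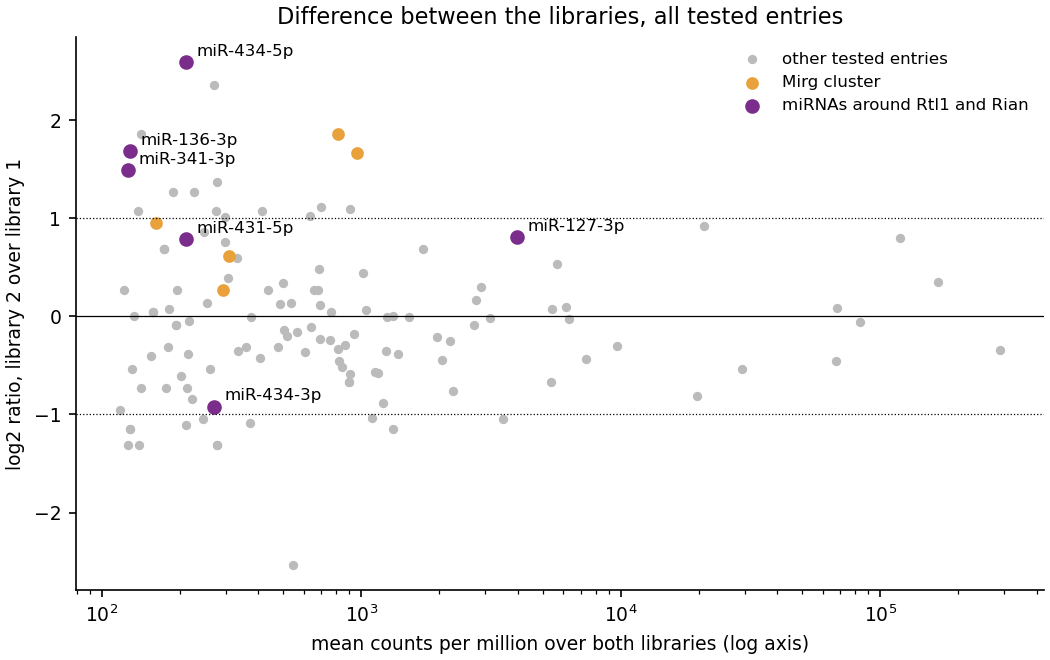
Each of the 129 tested miRNAs by its mean CPM (log axis) and its log2 ratio of library 2 to library 1, where a side with 3 counts or fewer is set to 3 counts; dotted lines mark a 2-fold difference. Of the 6 named miRNAs, 5 lie above 0, and miR-434-3p lies below 0 while miR-434-5p is the highest point.

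Arm use over the 16 member hairpins with both arms listed leaned to the 3p side. In library 1, 10 of 166 counts were 5p (6.02%, Wilson interval 3.30 to 10.7). In library 2, 32 of 250 were 5p (12.8%, interval 9.21 to 17.5). The mean was 9.41% ± 4.79 (SD, n = 2). All other hairpins of the table, pooled by count, had a 5p share of 83.5% in library 1, against 79.3% in library 2. Abundant 5p arms weigh heavily in that pool, with miR-182-5p, miR-183-5p and miR-21a-5p at mean levels of 67641, 29360 and 19736 CPM. It is therefore not the share of a typical hairpin. The miR-127 hairpin held most of the members' counts. Without that hairpin the members' 5p share was 28.6% (10 of 35 counts, interval 16.3 to 45.1) in library 1 and 51.7% (30 of 58, 39.2 to 64.1) in library 2. Without miR-127 and miR-434 it was 50.0% (9 of 18) and 41.7% (15 of 36). The miR-431 hairpin gave 7 of these 9 5p counts in library 1 and 10 of these 15 in library 2. The near-even shares thus came largely from miR-431, and most other hairpins with a count gave the 3p arm alone. Of the 12 hairpins with a count, 4 gave counts of both arms, 6 of the 3p arm alone and 2 of the 5p arm alone. Among hairpins with at least 10 counts, miR-431 gave mostly the 5p arm (100% of 7 and 90.9% of 11 counts), miR-127 almost all 3p, and miR-136 and miR-341 only 3p. By count, miR-434 alone led with different arms in the 2 libraries.

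**Figure D4:**
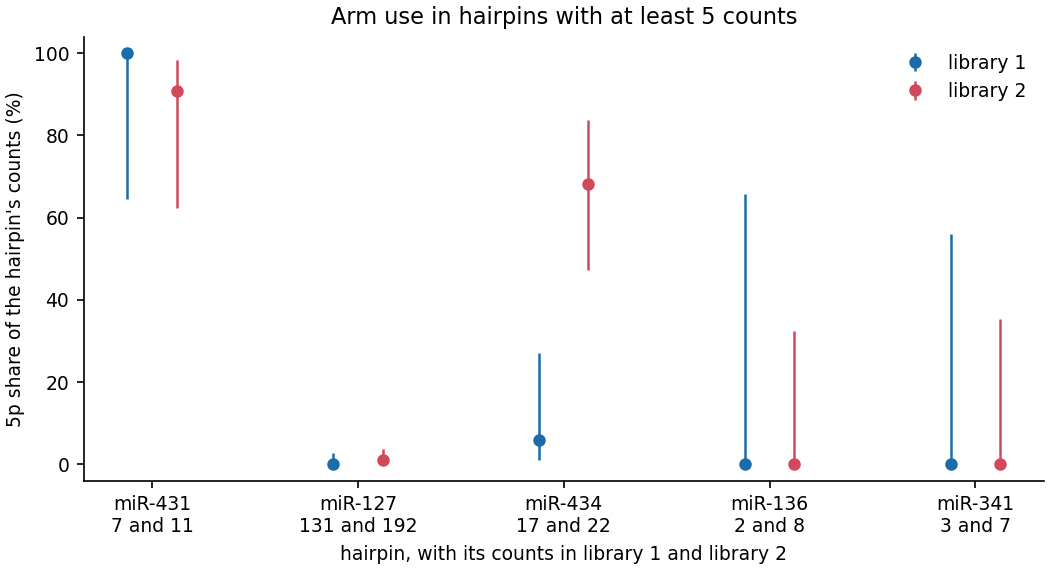
Share of each hairpin's counts that came from the 5p arm, in percent with 95% Wilson intervals, for hairpins with at least 5 counts; the numbers under each name are the counts in library 1 and library 2. miR-431 lies near the top in both libraries and miR-127 near 0, while the points of miR-434 lie at 5.88% and 68.2%.

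The neighbouring cluster in and before Mirg, from miR-379 to miR-410, was taken as the comparison because it belongs to the same imprinted domain. Of its 77 listed arms, 37 had a count, with 91 counts in library 1 and 193 in library 2 (0.201% and 0.515%). The ratio of library 2 to library 1 was 2.56 (exact interval 1.98 to 3.32), beside 1.82 (1.49 to 2.22) for the miRNAs around Rtl1 and Rian; the difference between these ratios was not tested, and the intervals overlap. Of 5 Mirg arms tested, 2 were called higher in library 2 and 0 higher in library 1. Its 5p arms held 49.5% of its counts in library 1, against 64.8% in library 2. Its most counted arm, miR-541-5p, had 21 and 55 counts.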

How the data were processed

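Small RNA libraries of 2 Dicer knockout samples (1 group, 2 replicates) were used. The deposited table holds unnormalized whole-number counts per mature miRNA; cutadapt, STAR, featureCounts and the build mm10 are named in the submitters' processing notes, without versions or roles. The miRBase release, strand setting and handling of reads with several matches are not given in the sources used here. No molecular identifiers are mentioned, so intervals cover counting error only. The p-values set the difference between 2 libraries against counting error, and no spread between samples enters them.

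Counts were scaled to 1000000 per library (CPM). Each miRNA with at least 10 counts over both libraries was tested across the table by Fisher's exact test, two-sided, with Benjamini-Hochberg adjustment; for the fold of a call, counts of 3 or fewer were set to 3. The test was checked on simulated data with counting noise only. There, 188 of 200 planted 4-fold changes were recovered and 2 of 1155 tests of unchanged miRNAs gave a call. The real libraries differed by more than counting noise, so the check does not give the rate of false calls between them. Members with at least 10 counts in all are named with values; sequences were to be printed from 20 counts, and those of miR-431-5p, miR-136-3p and miR-341-3p were added after the values were seen. Positions and sequences come from RefSeq (GRCm38.p6) and GENCODE (GRCm38). Members and lists were chosen with earlier results of these data known. Python 3.11.15, scipy 1.17.1, R 4.3.3 and edgeR 4.0.16 (TMM factors only) were used.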

Additional observations from a re-analysis of the deposited data

How the results depend on the processing

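The mean share of the members, 0.517% of the table total, was 4.13% of the total without the 10 most abundant entries and 2.32% of the total over miRNAs numbered 1000 or below plus the members, both because the denominator shrinks, and 0.119% without miR-127-3p, an alternative chosen after seeing the data. Of the 4 members detected, 1 remained at a count minimum of 20. The count of called members was 1, and it was 2 on that second total (where 10 of all 112 tested miRNAs were called) and 2 without a fold minimum (25 of 129); miR-127-3p is the one added, at a log2 ratio of 1.11 on that scale (Fisher's exact test, adjusted p = 2.59e-10, within a range of 2.59e-10 to 3.21e-05 over its alternatives). This scale moved every log2 ratio by 0.31 towards library 2. The mean 5p share, 9.41%, was 40.1% without miR-127 and, chosen after seeing the data, 45.8% without miR-127 and miR-434. The ratio of the members' totals, 1.82, was 2.25 on the same scale. Over 6 named miRNAs, 29 of 30 values under other scales and filters kept direction and call, and 0 reversed. The absence of reversals carries no information. The filters leave a log2 ratio unchanged, and the scales moved it by at most 0.31, less than the size of each of the 6 ratios. Leaving out each library in turn gave shares of 0.367% to 0.667%, 2 to 3 detected members and 5p shares of 6.02% to 12.8%; the difference between libraries needs both. No paired analysis was possible because the samples form a single group.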
